A study of Mus musculus with 23 samples.

Results

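The transcripts described here are 9 marker genes of retinal interneurons, read in RNA-seq libraries of sorted retinal microglia. They were chosen by name: 4 genes of bipolar cells (Grm6, Trpm1, Prkca and Pcp2) and 5 genes of amacrine cells (Gad1, Gad2, Slc6a9, Tfap2a and Tfap2b), out of 35825 genes in the table, of which 34732 could be given a symbol. GFP+ live cells were sorted from dissociated mouse retinas in 23 libraries. The study's methods describe pooling the retinas of several mice before sorting, and the study took male and female animals. Ages are not given in the sources used here. All mice carried the CX3CR1-GFP allele, which puts GFP into cells that use the Cx3cr1 promoter, which in the retina are chiefly microglia. WT libraries are those of the genotype Cx3Cr1-GFP, and KO libraries are those labelled Spp1KO/CX3CR1-GFP, from mice with a global Spp1 knockout that is not restricted to microglia. Naïve retinas gave 4 libraries of each genotype. Retinas at 4 weeks after intraocular pressure (IOP) elevation by microbeads injected into the anterior chamber gave 4 of each. Retinas at day 7 after optic nerve crush (ONC) gave 3 WT and 4 KO libraries. The comparisons ask how the interneuron transcripts carried by the sorted fraction differed between injured and naïve retinas and between genotypes.

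Bipolar cells carry the photoreceptor signal to the inner retina. In rod bipolar and other ON bipolar cells the glutamate receptor mGluR6, encoded by Grm6, closes the cation channel TRPM1 in darkness, and light reopens it. Prkca encodes the protein kinase C alpha long used to stain rod bipolar cells, and Pcp2 encodes a modulator of G proteins found in ON bipolar cells and in cerebellar Purkinje cells. Amacrine cells are the inhibitory interneurons of the inner retina. Gad1 and Gad2 encode the glutamate decarboxylases that make GABA, Slc6a9 encodes the glycine transporter GlyT1, which loads glycinergic amacrine cells and is also found in glia, and Tfap2a and Tfap2b encode AP-2 transcription factors of amacrine cells.

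The libraries held 22180480 to 30296094 reads on genes (median 26914869), and the limit set by a count of 0, taken as 3 reads, was 2.41 to 4.03 normalized counts. A normalized count is the read count of a gene divided by a size factor of its library. Microglia markers were present: all 10 genes of a microglia list were detected, at 1.12 to 3.38% of the counts of a library. In KO naïve replicates 1, 2 and 4 they summed to 260511, 291977 and 329386 normalized counts. The 8 genes of a rod list summed to more there, 380257, 361617 and 395967. In the other libraries the rod sum was the lower. Spp1, the targeted gene, was at 1228, 1518, 334 and 492 in the WT naïve libraries, 2353, 2409.8, 1343 and 2772 in WT IOP and 14556, 16067 and 22906 in WT ONC. In the libraries labelled KO it was at 350.2, 53.1, 6.78 and 81.6 in naïve, 25.5, 811, 9.28 and 761 in IOP and 4750.4, 6811, 15.0 and 6226 in ONC retinas. KO ONC replicates 1, 2 and 4 held more Spp1 than any WT naïve or WT IOP library and went against the label, as did KO IOP replicates 2 and 4 beside KO IOP replicates 1 and 3. KO naïve replicate 1, at 350.2, lay above WT naïve replicate 3, at 334, so the naïve groups overlapped in Spp1. Directions given for KO libraries rest on the labels. Some libraries stood apart in transcripts of other cells. KO naïve replicates 1, 2 and 4 held 80974, 21643 and 22538 normalized counts summed over 10 genes of pigment epithelium and melanocytes. The sum was 1906 in KO naïve replicate 3 and 1289.7 to 2897 in WT naïve. KO ONC replicate 4 held 23839.8. KO IOP replicates 2 and 4 held 11582 and 10741, against 971 and 490 in KO IOP replicates 1 and 3. The 4 WT IOP libraries held 28181 to 204817 over 7 lens genes, against 105 to 2013 in WT naïve. In KO IOP, Cx3cr1 was at 1079, 1233, 1067 and 952, against 9417 to 67878 in the other libraries.

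The promoter windows of Trpm1, Gad1 and Gad2 are shown as examples from the bipolar and the amacrine members. Of the members, Tfap2a and Tfap2b encode factors whose binding motif, GCCNNNGGC, can be searched in them. Each window is RefSeq sequence of GRCm38.p6, 300 bases long, from 250 bases before a gene's start to 50 after it, written 5′ to 3′ on the strand of the gene. Capitals mark GCCNNNGGC and TAATCC, the core motif of the photoreceptor and bipolar factors CRX and OTX2, each searched on both strands. GCCNNNGGC reads the same on both, TAATCC appears as GGATTA on the other strand, and the motifs do not overlap here.
Trpm1, chr7:64153585-64153884, plus strand: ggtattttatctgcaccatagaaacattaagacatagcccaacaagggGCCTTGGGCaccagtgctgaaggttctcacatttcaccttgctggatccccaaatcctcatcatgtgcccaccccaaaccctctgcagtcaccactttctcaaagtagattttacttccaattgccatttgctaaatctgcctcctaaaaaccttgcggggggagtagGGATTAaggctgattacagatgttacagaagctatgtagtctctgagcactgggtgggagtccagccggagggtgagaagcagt
Gad1, chr2:70561879-70562178, plus strand: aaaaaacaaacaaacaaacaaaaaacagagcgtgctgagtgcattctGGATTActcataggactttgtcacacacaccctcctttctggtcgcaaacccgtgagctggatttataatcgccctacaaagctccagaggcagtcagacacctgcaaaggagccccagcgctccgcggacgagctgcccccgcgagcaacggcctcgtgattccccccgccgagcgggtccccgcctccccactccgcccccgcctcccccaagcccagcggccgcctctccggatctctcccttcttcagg
Gad2, chr2:22622077-22622376, plus strand: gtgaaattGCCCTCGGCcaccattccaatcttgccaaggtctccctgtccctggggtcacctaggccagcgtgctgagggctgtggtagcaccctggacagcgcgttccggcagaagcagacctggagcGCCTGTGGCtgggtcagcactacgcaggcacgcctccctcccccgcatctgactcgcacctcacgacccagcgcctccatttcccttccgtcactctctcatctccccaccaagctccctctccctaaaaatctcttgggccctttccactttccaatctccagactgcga

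All 9 members had a window, 16 windows in all since some genes have several starts. TAATCC was found in 2 windows, 34 bases before the start of Trpm1 and 203 before that of Gad1, and in 7.06% of 32851 windows of all genes. GCCNNNGGC was found in 4 windows, those of Trpm1, Gad2, Prkca and Pcp2, and in 16.6% of all windows. The Gad2 and Prkca windows held it at 2 places each. None of the windows of Slc6a9, Grm6, Tfap2a and Tfap2b held either motif. A match is a description of letters, and an absent match says nothing about a factor.

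Every member was detected in every library, the scarcest being Tfap2a with 13 reads in WT ONC replicate 3, and the 9 genes passed the filter on low values (10 or more normalized counts in 3 or more libraries) in each of the 6 groups. Together they made up 0.0213 to 0.201% of the normalized counts of a library. In WT naïve libraries the order of their levels, per kb of exon so that genes of different length could be compared, was led by amacrine genes. Gad1 stood at 2611 ± 90.9 normalized counts per kb (SD, n = 4), above Slc6a9 at 706 ± 81.1, and the ranges of these genes did not overlap with each other or with the next gene. Gad2 at 502 ± 91.4 and Pcp2 at 499 ± 85.6 overlapped, and the range of Pcp2, up to 600, also reached that of Slc6a9, from 595. Tfap2b, Trpm1, Grm6 and Prkca followed, at 212 ± 18.2, 185 ± 33.0, 91.1 ± 59.2 and 83.7 ± 25.4, each overlapping its neighbour, and Tfap2a was lowest at 50.5 ± 12.6. By normalized count, Gad1 ranked 127 of the 20965 genes above 0 in WT naïve. In WT ONC the order was another: Pcp2 led at 1057 ± 640.0 per kb (SD, n = 3), Gad1 had 368 ± 223, and each gene overlapped its neighbour in the order except Tfap2b and Tfap2a, the lowest at 8.10 ± 4.70. In GRCm38 (GENCODE annotation), 51.5% of the exon bases of Pcp2 (chr8:3623371-3625545) also lie in exons of Pet100 on the other strand, and 27.8% of those of Slc6a9 (chr4:117834506-117875198) in Ccdc24. Whether the counting used strand is not given in the sources used here, so reads of such pairs cannot be told apart. Pet100 had 246 to 1343 normalized counts and Ccdc24 165 to 1675. Gad1 and Gad2 share 0 words of 31 bases in their annotated transcripts, as do Tfap2a and Tfap2b.

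After ONC, the 5 amacrine members fell in the sorted fraction of WT retinas, to between 10.2 and 23.6% of the naïve level on the fitted log2 scale. Gad1 (chr2:70553072-70602014) was at 20726, 19056, 20145 and 19868 normalized counts in WT naïve replicates 1 to 4, at 7259, 5092, 10559 and 6385 in WT IOP replicates 1 to 4 and at 1072, 4481 and 2887 in WT ONC replicates 1 to 3. The naïve libraries lay within a narrow band, and each injured library lay below all of them. The log2 fold change of Gad1 was -3.05 ± 0.33 (SE, adjusted p = 4.53e-06) after ONC, from limma on log2(normalized count + 1) with Benjamini-Hochberg adjustment over the 17102 genes tested. A gene was called where its adjusted p was under 0.05 and its log2 fold change over 0.58 in size. Gad2 (chr2:22622205-22693874), the second decarboxylase, was at 3491, 2207, 3033 and 3062 in WT naïve, 582, 849, 2735 and 1224 in WT IOP and 137, 582 and 329 in WT ONC. Its ONC libraries lay below every naïve library, and its log2 fold change after ONC was -3.29 ± 0.48 (SE, adjusted p = 6.93e-05). The ratio of Gad1 to Gad2 was 6.57 (5.94 to 8.63) in WT naïve and 7.83 (7.70 to 8.78) in WT ONC (median and range), and the ranges overlapped.

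Slc6a9, the glycine transporter, was at 3892, 3982, 3057 and 3598 in WT naïve, 1207, 1904, 2112 and 1614 in WT IOP and 906, 1119.7 and 539 in WT ONC. The 3 groups were in descending order without overlap, and the log2 fold change after ONC was -2.14 ± 0.29 (SE, adjusted p = 3.63e-05). The AP-2 gene Tfap2b (chr1:19208914-19238576) was at 1464, 1328, 1384 and 1191 in WT naïve, 780.4, 649, 1097 and 940.3 in WT IOP and 269.8, 529 and 218 in WT ONC, again in descending order without overlap, and its log2 fold change after ONC was -2.09 ± 0.34 (SE, adjusted p = 0.000197). Tfap2a (chr13:40715302-40738376), the scarcest member, was at 202, 273, 323 and 193 in WT naïve, 208, 63.5, 123 and 129 in WT IOP and 42.9, 61.0 and 15.2 in WT ONC, where it lay below all other libraries of the genotype. Its log2 fold change after ONC was -2.78 ± 0.49 (SE, adjusted p = 0.000473). Of all genes tested, 10.5% were called lower in this comparison and 14.3% lay lower without overlap, against 5 of 5 amacrine members for each. The median log2 fold change was -2.78 over the amacrine members and -0.10 over all genes. The 5 genes were called in each of the 7 fits that left out a library and in each of the other 14 alternatives. In these bulk samples of sorted cells, fewer cells of a type and less RNA per cell cannot be told apart. Nor can a smaller amount of their RNA carried into the sorted fraction. Retinal ganglion cell transcripts moved as well: 6 of 8 ganglion cell markers fell, and their summed level was 8789 to 13441 in WT naïve and 558 to 2519.7 in WT ONC. The 10 microglia markers summed to 636318 to 853279 and 599423 to 1185580.0, with 1 of 10 called, Aif1, higher. The part of either in the amacrine values was not tested.

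**Figure D1:**
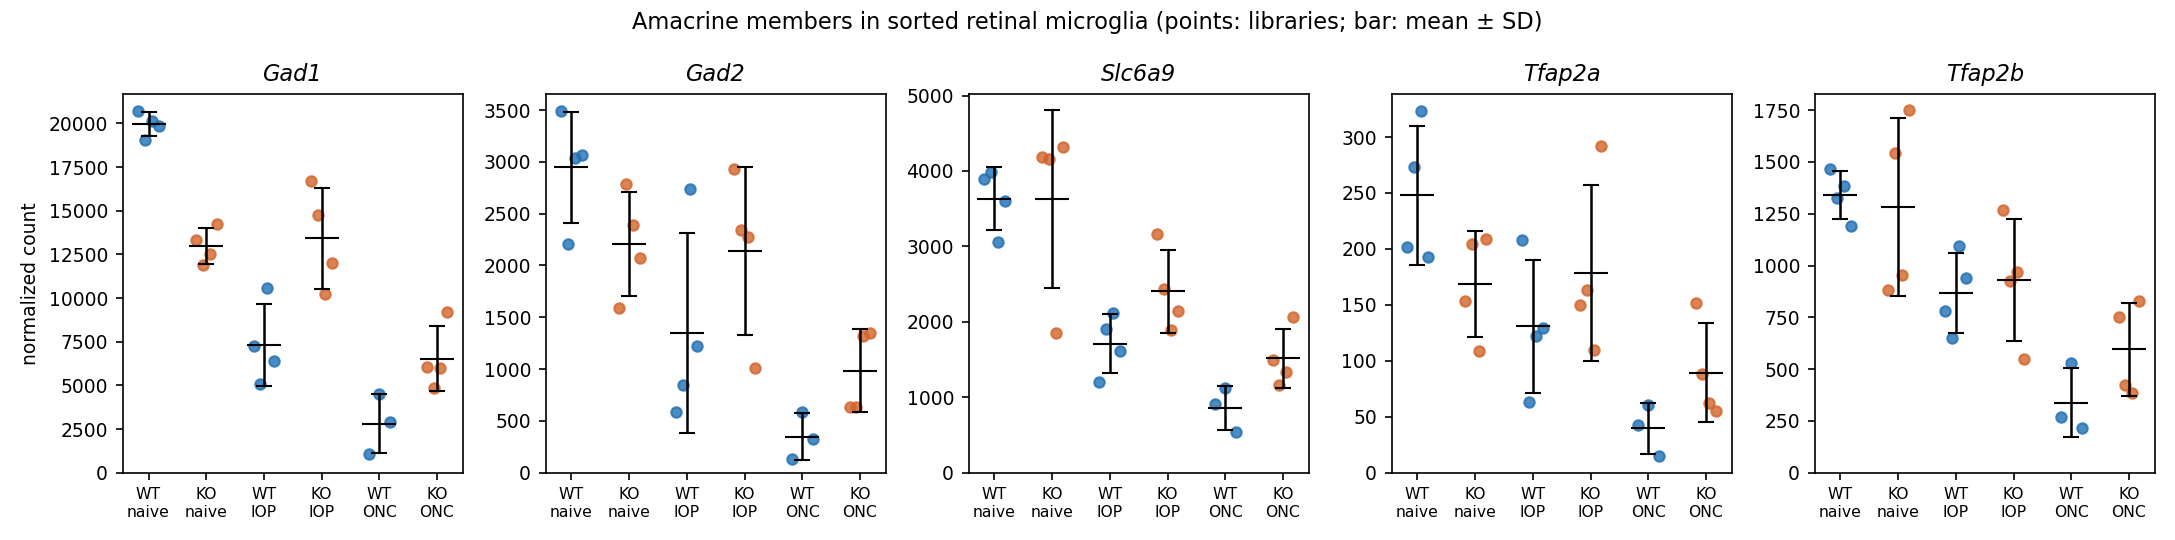
Normalized counts of the 5 amacrine members (vertical axes from 0, a scale for each gene) in the 6 groups; points are libraries (blue WT, orange KO), bars the mean ± SD. The WT ONC mean is the lowest for each gene, with Gad1 libraries between 1072 and 4481 against 19056 to 20726 in WT naïve, and the KO ONC mean lies between WT ONC and WT naïve.

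After IOP elevation in WT retinas, 2 of the 9 members were called, Gad1 and Slc6a9, both lower, beside 0.719% of all genes called lower. Gad1 had a log2 fold change of -1.50 ± 0.30 (SE, adjusted p = 0.0122) and Slc6a9 one of -1.11 ± 0.27 (SE, adjusted p = 0.0389); in both, as in Tfap2b, the 4 IOP libraries lay below the 4 naïve libraries (7.03% of all genes did). The call of Slc6a9 was lost without any 1 of WT naïve replicates 1, 2, 3 and 4 or WT IOP replicates 1, 2 and 4, with adjusted p from 0.0569 to 0.165. The log2 fold change was -1.36 ± 0.44 (SE, adjusted p = 0.141) for Gad2, -1.0 ± 0.46 (SE, adjusted p = 0.345) for Tfap2a and -0.65 ± 0.31 (SE, adjusted p = 0.373) for Tfap2b, none of them called. For Gad2 the exception was WT IOP replicate 3, at 2735, within the naïve range; without it the adjusted p was 0.0316 and the log2 fold change -1.78. The comparisons of IOP and ONC with naïve share the WT naïve libraries. The WT IOP libraries are those with lens transcripts, 186433, 42906, 28181 and 204817 summed normalized counts in replicates 1 to 4, and Gad1 was 7259, 5092, 10559 and 6385 in the same order; their part was not tested.

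Of the bipolar members in WT retinas, 0 of 4 were called after ONC, beside 18.1% of all genes, and 0 of 4 after IOP elevation, beside 1.56%. At an unadjusted p under 0.05 in limma there were 0 of 4 and 1 of 4, beside 5795 and 2279 of 17102 genes. edgeR called 0 of 4 in either, beside 2641 and 213 genes. Grm6 (chr11:50850685-50866208), the mGluR6 receptor, was at 279, 226, 543 and 928 in WT naïve, 1291, 521, 372 and 482 in WT IOP and 536, 2229 and 405 in WT ONC, with overlap between all 3 groups. Trpm1 (chr7:64153835-64269775), its channel, was at 2100.3, 3279.8, 2830.1 and 2731 in WT naïve, 4521, 3462, 3329 and 5314 in WT IOP and 1845, 6766 and 1172 in WT ONC. The WT ONC libraries of Trpm1 lay on both sides of the naïve range, 2 below it and replicate 2 above it. Prkca (chr11:107933387-108343928) was at 623, 655, 637 and 1094, 1707, 722, 524 and 1364 and 1048, 2684 and 703 in the same groups, again with replicate 2 the highest after ONC. Pcp2 was at 972, 1097, 844 and 736 in WT naïve, 3095, 1834, 1614 and 3339 in WT IOP and 2357, 2831 and 609 in WT ONC; each WT IOP library lay above the naïve libraries, as for Trpm1 (6.75% of all genes did). The log2 fold change of Pcp2 after IOP elevation was 1.38 ± 0.39 (SE, adjusted p = 0.0841), and Pcp2 was called with DESeq2 on recovered reads (adjusted p = 0.00833), when the compared groups were fitted alone (0.0249) and with a pigment epithelium covariate (0.0484). After ONC the log2 fold changes of the 4 bipolar members ran from -0.14 ± 0.52 (SE) for Trpm1 to 0.89 ± 0.60 for Grm6, with adjusted p from 0.172 to 0.874 in limma. Pcp2 was called higher after ONC with DESeq2 on recovered reads (1.08, adjusted p = 0.0386), without WT ONC replicate 3 (1.52, adjusted p = 0.00909) and with the microglia covariate (1.08, adjusted p = 0.0448). Prkca was called higher with the rod covariate (1.32, adjusted p = 0.0493) and with the microglia covariate (1.2, adjusted p = 0.0481). WT ONC replicate 2, the highest of its group in all 9 members, also held more rod transcripts, with 257141 summed normalized counts over 8 rod genes against 85454 and 100919 in replicates 1 and 3. It held fewer microglia transcripts, 599423 against 1185580.0 and 1029950.0.

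**Figure D2:**
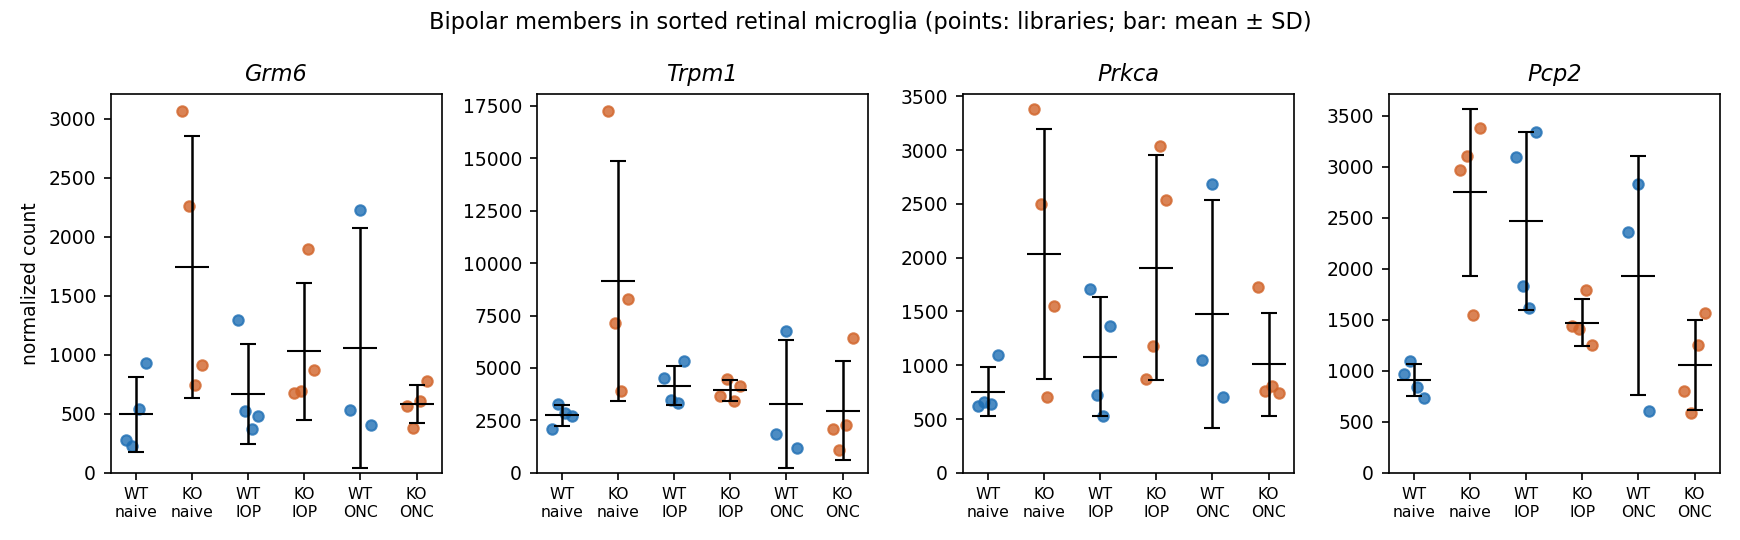
Normalized counts of the 4 bipolar members (vertical axes from 0, a scale for each gene) in the 6 groups; points are libraries (blue WT, orange KO), bars the mean ± SD. KO naïve libraries reach the highest values, with Trpm1 at 17238 in replicate 1, while WT naïve and WT ONC overlap in each gene.

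Between the naïve groups the fitted log2 fold changes of the bipolar members, KO over WT, ran from 1.26 to 1.80. Of the 9 members 0 were called, beside 0.409% of all genes. At an unadjusted p under 0.05 in limma there were 4 of 9, beside 2670 of 17102 genes. edgeR called 0 of 9 and DESeq2 3, beside 26 and 536 genes. Trpm1 was at 17238, 7153, 3894 and 8311 in KO naïve replicates 1 to 4, each above the WT naïve libraries, with a log2 fold change of 1.56 ± 0.49 (SE, adjusted p = 0.112). Pcp2 was at 2973, 3103, 1547 and 3380.0, also without overlap (1.55 ± 0.39 (SE, adjusted p = 0.0675)). Grm6 was at 3061, 2263, 745 and 909 (1.80 ± 0.56 (SE, adjusted p = 0.11)) and Prkca at 3379, 2503, 708 and 1548 (1.26 ± 0.50 (SE, adjusted p = 0.222)), and the former overlapped with WT in replicates 3 and 4, the latter in replicate 3. Of all genes, 4.3% lay higher without overlap, as Trpm1 and Pcp2 did, and 5.3% lower. Replicate 3 was the lowest KO naïve library for all 4 bipolar members. It was also the KO naïve library with the least pigment epithelium transcript: Rgr, a defining gene of that tissue, was at 27128, 9177, 463 and 9208 in KO naïve replicates 1 to 4, and the microglial gene P2ry12 at 17495, 18619.6, 61441 and 21109.5. Photoreceptor transcripts also differed between these libraries. The 8 rod genes summed to 380257, 361617, 145287 and 395967 in KO naïve replicates 1 to 4, against 184541 to 215215 in WT naïve, and 6 cone genes to 28842, 33130.5, 21089 and 37769.8, against 11014 to 12111. No rod gene was called between the naïve groups, and 2 of 6 cone genes were, the cone arrestin gene Arr3 (1.90 ± 0.37 (SE, adjusted p = 0.028)) and the cone transducin gene Gnat2 (1.47 ± 0.32 (SE, adjusted p = 0.0467)). The part of these transcripts in the bipolar values was not tested. Trpm1 is known from pigment cells as well as from bipolar cells, and Dct, a melanocyte gene, was at 24345, 4615, 487 and 4715 in the same order. Without KO naïve replicate 3, 1623 of the 17102 genes tested were called, against 70 with it. All 4 bipolar members were among the 1623, with log2 fold changes from 1.69 for Prkca to 2.13 for Grm6. With replicate 3 as the sole KO naïve library, those of Grm6, Pcp2, Trpm1 and Prkca were 0.82, 0.78, 0.53 and -0.04.

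Of the amacrine members, Gad1 was at 13306, 11882, 12505 and 14252 in KO naïve, all below the WT naïve libraries, with a log2 fold change of -0.62 ± 0.30 (SE, adjusted p = 0.328). Gad2 was at 1590.4, 2782, 2391 and 2072, Slc6a9 at 4187, 4154, 1858 and 4320.0, Tfap2a at 153, 204, 108 and 209 and Tfap2b at 884, 1543, 956 and 1752, each overlapping with WT naïve. The log2 fold changes of these 4 genes lay between -0.57 ± 0.46 (SE) for Tfap2a and -0.07 ± 0.27 for Slc6a9, and the limma adjusted p of the 5 amacrine genes from 0.328 to 0.925.

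After ONC in the libraries labelled KO, 6 of 9 members were called lower against KO naïve, beside 11.0% of all genes called lower; 3 of the 9 lay lower without overlap, beside 13.1%. Trpm1 fell from the KO naïve values above to 2081, 1086, 2268 and 6438 in KO ONC replicates 1 to 4, a log2 fold change of -1.73 ± 0.49 (SE, adjusted p = 0.0124), with replicate 4 within the naïve range. Pcp2 was at 806, 587, 1255 and 1570.1 in KO ONC (-1.42 ± 0.39 (SE, adjusted p = 0.0105)), with replicate 4 just above KO naïve replicate 3. Grm6 at 567, 382, 609.7 and 773 and Prkca at 1725, 757, 810.1 and 746 overlapped with KO naïve and were not called (-1.38 ± 0.56 (SE, adjusted p = 0.0751) and -0.89 ± 0.50 (SE, adjusted p = 0.204)). Of the decarboxylases, Gad1 was at 6061, 4873, 5999 and 9207 in KO ONC, without overlap (-1.03 ± 0.30 (SE, adjusted p = 0.0167)), and Gad2 at 639, 634, 1319 and 1349.7, without overlap as well (-1.23 ± 0.44 (SE, adjusted p = 0.0457)). Slc6a9 was at 1501, 1169, 1329.8 and 2065 (-1.21 ± 0.27 (SE, adjusted p = 0.00255)), where replicate 4 lay above KO naïve replicate 3. Tfap2b was at 751, 425, 385 and 827, without overlap (-1.12 ± 0.31 (SE, adjusted p = 0.0121)), and Tfap2a at 152, 88.1, 62.1 and 55.5 (-0.98 ± 0.46 (SE, adjusted p = 0.122)), not called. In the KO naïve group of this comparison, 3 of 4 libraries stood apart in pigment epithelium transcripts. So did KO ONC replicate 4, at 23839.8 summed normalized counts. Of all genes, 4043 were called without a covariate. With a covariate for the rod, the pigment epithelium or the microglia list, 635, 1298 and 380 genes were called, and 0 members. Gad2 was then at -1.06, -1.20 and -1.26 in that order, and Trpm1 at -0.59, -0.67 and -0.07. With replicate 3 as the sole KO naïve library 0 were called, in a fit with fewer samples that takes the spread of a lone library from the other groups. There the log2 fold changes of Gad1 and Gad2 were -0.98 and -1.37, about those with 4 libraries, and those of Trpm1, Pcp2, Slc6a9 and Tfap2b were -0.70, -0.65, -0.33 and -0.76. Without KO ONC replicate 2 the number of members called was 2, beside 2815 of 17102 genes. Gad2 lost its call without KO naïve replicate 2, 3 or 4 or KO ONC replicate 1 or 2 (adjusted p 0.0703 to 0.14). Trpm1 lost it without KO naïve replicate 1 or KO ONC replicate 2 (0.0561 and 0.0630) and Tfap2b without KO naïve replicate 4 or KO ONC replicate 3 (0.0533 and 0.0527). Pcp2 and Gad1 lost it without KO ONC replicate 2 (0.0512 and 0.0644). Over 10 microglia markers 7 were called higher in this comparison, and 6 of 8 rod markers and 5 of 6 cone markers lower.

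After IOP elevation in the libraries labelled KO, 0 of 9 members were called against KO naïve, beside 7.88% of all genes. At an unadjusted p under 0.05 in limma there were 2 of 9, beside 4635 of 17102 genes. edgeR and DESeq2 called 0 of 9 each, beside 559 and 1908 genes. Gad1 was at 16724, 14772, 10225 and 11990.4 in KO IOP replicates 1 to 4, on both sides of the KO naïve libraries (0.03 ± 0.30 (SE, adjusted p = 0.965)). Gad2 was at 2928, 2339.6, 2279 and 1014, Slc6a9 at 3160.3, 2440.1, 1886 and 2149, Tfap2a at 149.7, 164, 109 and 292 and Tfap2b at 1269.6, 926, 969 and 550.3, each overlapping with KO naïve. The log2 fold changes of the bipolar genes ran from -1.03 ± 0.49 (SE) for Trpm1 to -0.06 ± 0.50 for Prkca. Trpm1 was at 3646, 4495, 3403 and 4156, Grm6 at 672, 692, 1891 and 868, Prkca at 871, 1178, 3037 and 2537 and Pcp2 at 1438, 1408, 1795 and 1251. KO IOP replicates 2 and 4, with Dct at 5805 and 5512 against 476 and 101 in replicates 1 and 3, had the 2 highest Trpm1 values of the group.

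**Figure D3:**
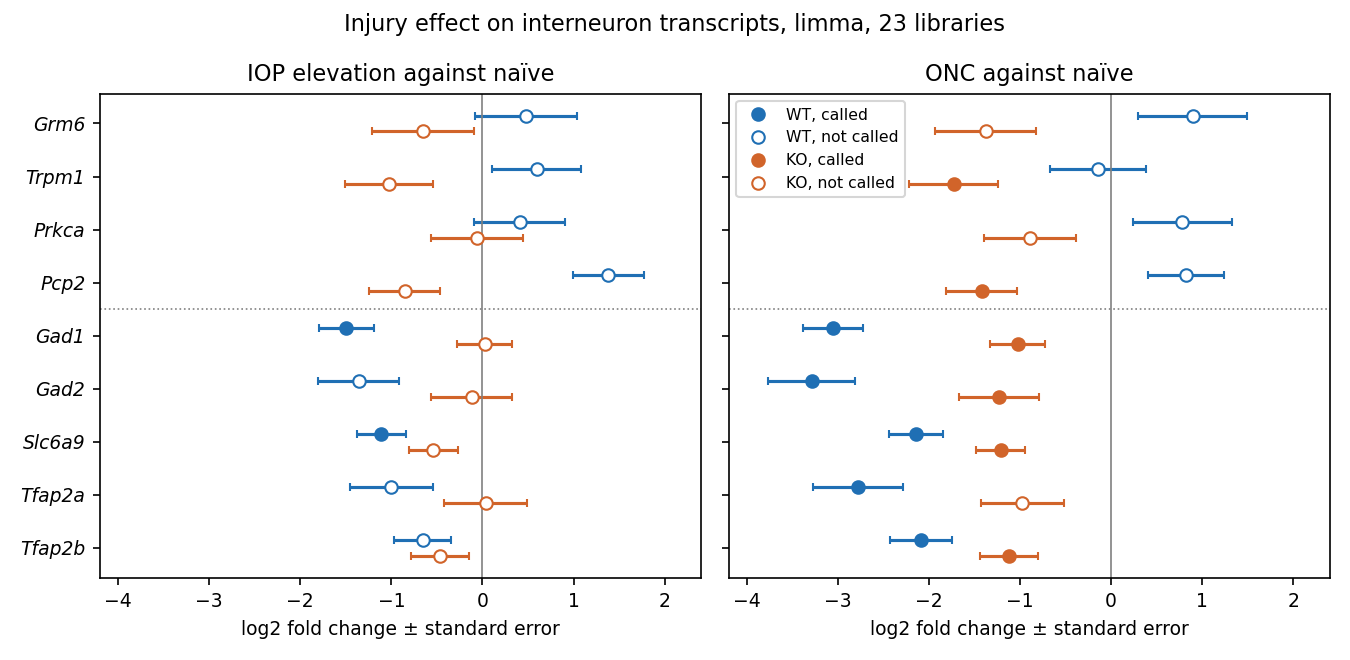
Log2 fold changes ± standard error (limma, 23 libraries) of the 9 members after IOP elevation (left) and ONC (right) against naïve libraries of the same genotype, WT in blue and KO in orange; filled points passed both thresholds. In WT after ONC the 5 amacrine genes lie between -3.29 and -2.09 while the bipolar genes lie near or above 0; in KO after ONC all 9 lie between -1.73 and -0.89.

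Between genotypes after injury, 0 of 9 members were called after IOP elevation, beside 2.11% of all genes, and 0 of 9 after ONC, beside 0.0877%. At an unadjusted p under 0.05 in limma there were 1 of 9 and 5 of 9, beside 3602 and 1601 of 17102 genes. edgeR called 0 of 9 in either, beside 250 and 2 genes. DESeq2 called 0 of 9 and 1 of 9, beside 940 and 100 genes. After IOP elevation the log2 fold changes ran from -0.69 ± 0.39 (SE) for Pcp2 to 0.90 ± 0.30 for Gad1, and the groups overlapped in all 9 genes. After ONC the 5 amacrine genes had log2 fold changes, KO over WT, from 0.84 ± 0.34 (SE) for Tfap2b to 1.63 ± 0.48 for Gad2 and limma adjusted p from 0.132 to 0.442. In 3 of the 5, Gad1, Gad2 and Slc6a9, the KO ONC libraries lay above the WT ONC libraries, beside 3.96% of all genes. Gad1 had 6535 ± 1863 normalized counts in KO ONC (SD, n = 4) and 2813 ± 1706 in WT ONC (SD, n = 3), and a log2 fold change of 1.40 ± 0.33 (SE, adjusted p = 0.132). Without WT ONC replicate 1 those of Gad1 and Gad2 were 0.82, adjusted p = 0.669 and 1.07, adjusted p = 0.933, and without replicate 3 1.54, adjusted p = 0.123 and 1.70, adjusted p = 0.265. Without WT ONC replicate 2, the library with more rod transcripts, 744 of 17102 genes were called, 620 of them higher, against 15 with it. Gad1 and Gad2 were among the 744, at 1.85 and 2.11 (adjusted p = 0.00202 and 0.022). With all libraries the bipolar genes had log2 fold changes of -0.70 ± 0.42 (SE) for Pcp2 to -0.03 ± 0.52 for Trpm1.

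The difference of the injury effects between genotypes was tested as an interaction. For IOP elevation 2 of 9 members were called, beside 8.75% of all genes. Gad1 had a log2 fold change of -1.50 ± 0.30 (SE) in WT and 0.03 ± 0.30 in KO, and the interaction was 1.52 ± 0.43 (SE, adjusted p = 0.0315). Pcp2 had 1.38 ± 0.39 in WT and -0.85 ± 0.39 in KO, and its interaction was -2.23 ± 0.55 (SE, adjusted p = 0.0183). The interaction of Gad1 was lost without any 1 of 9 libraries, WT naïve replicates 1, 3 and 4, KO naïve replicates 2 and 4, WT IOP replicates 1 and 4 and KO IOP replicates 1 and 2, with adjusted p from 0.0542 to 0.0713. It was also lost with upper-quartile rescaling, with quantile normalization, with the microglia covariate and with replicate 3 as the sole KO naïve library (1.41, adjusted p = 0.0538, 1.01, adjusted p = 0.172, 2.10, adjusted p = 0.0646 and 1.57, adjusted p = 0.492). That of Pcp2 was lost with the rod, the pigment epithelium and the microglia covariate (-1.37, adjusted p = 0.353, -1.82, adjusted p = 0.0777 and -1.09, adjusted p = 0.53) and with replicate 3 as the sole KO naïve library (-1.46, adjusted p = 0.666). For ONC 0 of 9 were called, beside 0.0702% of all genes. At an unadjusted p under 0.05 in limma there were 9 of 9, beside 2125 of 17102 genes. edgeR called 0 of 9 and DESeq2 2, beside 3 and 226 genes. The 5 amacrine genes had interactions of 0.93 ± 0.40 (SE) for Slc6a9 to 2.06 ± 0.65 for Gad2, and the 4 bipolar genes of -2.27 ± 0.82 for Grm6 to -1.59 ± 0.71 for Trpm1. The lowest adjusted p was 0.0754, for Gad1. Without WT ONC replicate 2, or without KO naïve replicate 3, Gad1 was called (2.47 and 2.01; adjusted p = 0.00327 and 0.0204). Pcp2 was called without KO naïve replicate 3 or WT ONC replicate 3 (-2.50 and -2.94, adjusted p = 0.0175 and 0.0168). Of all genes, 205 were called without WT ONC replicate 2, 633 without KO naïve replicate 3 and 42 without WT ONC replicate 3. With all libraries 12 were. These interactions share the naïve libraries of both genotypes.

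The 2 kinds of transcript stood in different proportions in the groups. The summed amacrine members over the summed bipolar members gave a median ratio of 5.43 (5.08 to 7.49) in WT naïve (range in parentheses), 1.14 (0.946 to 2.85) in WT IOP and 0.467 (0.42 to 1.38) in WT ONC. In the libraries labelled KO the ratio was 1.48 (0.755 to 2.58) in naïve, 2.24 (1.53 to 3.66) in IOP and 1.80 (1.42 to 2.56) in ONC retinas. WT naïve lay above every other group, and a ratio within a library does not depend on the scaling of libraries. Against a microglial gene, Gad1 over P2ry12 was 0.315 (0.281 to 0.386) in WT naïve, 0.201 (0.116 to 0.233) in WT IOP, and 0.0714 (0.0225 to 0.178) in WT ONC. It was 0.657 (0.204 to 0.761) in KO naïve, 0.291 (0.181 to 0.361) in KO IOP and 0.17 (0.123 to 0.303) in KO ONC, and the 3 KO groups overlapped.

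**Figure D4:**
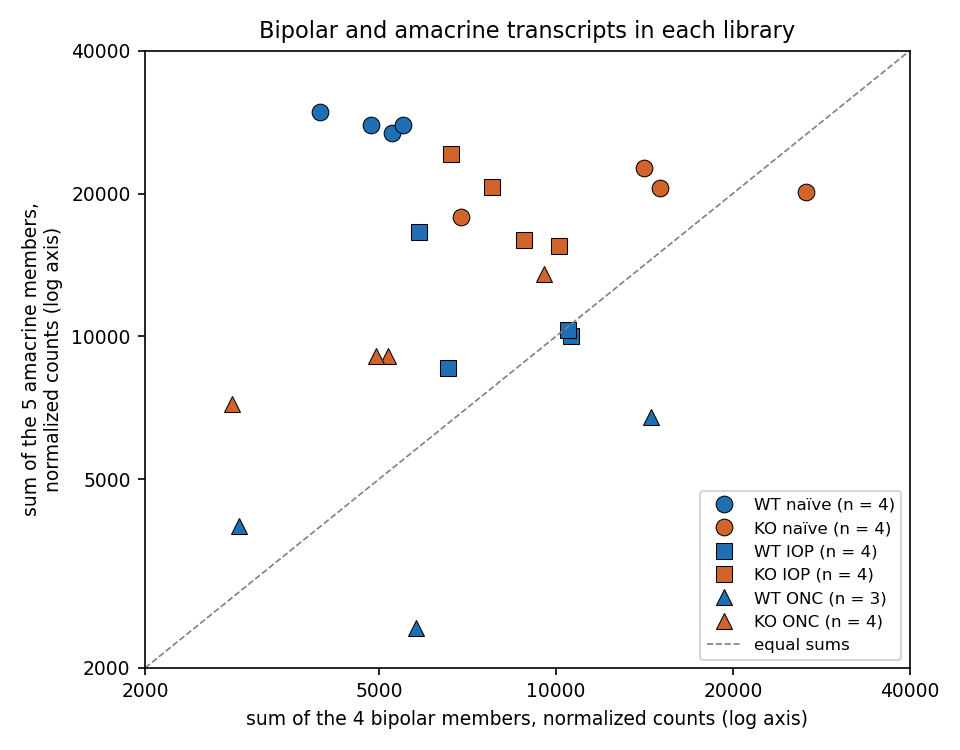
Summed normalized counts of the 5 amacrine members (vertical, log axis) against those of the 4 bipolar members (horizontal, log axis), a point for each of the 23 libraries, coloured by genotype and shaped by condition; the dashed line marks equal sums. WT naïve libraries sit highest above the line, at ratios of 5.08 to 7.49, and 2 of 3 WT ONC libraries lie below it.

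Across the 23 libraries, the log2 values of amacrine members went together more closely than those of bipolar members, with a median Pearson r of 0.84 over 10 pairs (0.64 to 0.93) and 0.63 over 6 pairs (0.53 to 0.84), and r between the 2 kinds had a median of 0.10 over 20 pairs. These points share their groups and library composition; as deviations from group means the medians were 0.30, 0.56 and 0.20. The tested genes most like the mean of the amacrine members were Gucy1a1 (r = 0.97), a subunit of the nitric oxide receptor guanylyl cyclase, Rgs8 (0.97), Faim2 (0.97), Ndrg4 (0.97) and Lrrn3 (0.97). Gucy1a1 averaged 8219.6 normalized counts in WT naïve and 1687 in WT ONC. Those most like the bipolar mean were Ttyh1 (r = 0.95), Ccdc136 (0.87), Map6 (0.85), Fam171b (0.85) and Asap2 (0.84).

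Other genes of the same cells and pathways were read from lists, of which some share genes: Slc32a1 is counted among the amacrine, GABA and glycine genes and Slc6a5 among the amacrine and glycine genes. Of all genes tested, 10.5% were called lower after ONC in WT and 11.0% in KO, and the median log2 fold change was -0.10 and -0.12. Of 15 further amacrine genes, 10 fell after ONC in WT and 0 rose, with a median of -2.27. The largest falls were those of the vesicular acetylcholine transporter Slc18a3 (-5.17 ± 0.97 (SE, adjusted p = 0.000788)), the neuropeptide Npy (-3.75 ± 0.52 (SE, adjusted p = 4.66e-05)), the vesicular glutamate transporter Slc17a8 (-3.31 ± 0.89 (SE, adjusted p = 0.0128)), the vesicular inhibitory amino acid transporter Slc32a1 (-3.03 ± 0.48 (SE, adjusted p = 0.000157)) and the AP-2 gene Tfap2c (-2.58 ± 0.38 (SE, adjusted p = 8.47e-05)). In WT ONC, Slc18a3 was at 0 to 57.5 normalized counts and Slc17a8 at 2.34 to 57.5. Each had a library under the floor of 3 reads, so the size of their falls depends on the 1 added before the logarithm. After IOP elevation in WT, where 0.719% of all genes were called lower, 1 of 15 was, Tfap2c (-2.06 ± 0.35 (SE, adjusted p = 0.0029)). In KO ONC against KO naïve 7 fell, led by the calcium-binding protein gene Calb2 (-2.13 ± 0.32 (SE, adjusted p = 9.82e-05)). Among 10 genes of GABA synthesis, transport and reception, 5 fell after ONC in WT and 8 in KO, with medians of -1.12 and -1.52. The GABA transaminase gene Abat fell in WT (-2.31 ± 0.39 (SE, adjusted p = 0.00026)). Among 9 glycine genes 4 fell in WT and 6 in KO, with medians of -1.52 and -1.44. Glra2, a glycine receptor subunit, fell in WT after IOP elevation (-2.06 ± 0.34 (SE, adjusted p = 0.00234)) and after ONC (-3.86 ± 0.37 (SE, adjusted p = 1.5e-06)). In KO it averaged 387 normalized counts after IOP elevation and 306 in naïve, and it fell after ONC (-1.18 ± 0.34 (SE, adjusted p = 0.0154)). Its interaction was 2.41 ± 0.49 (SE, adjusted p = 0.00743) for IOP and 2.68 ± 0.51 (SE, adjusted p = 0.047) for ONC. The KO naïve libraries, at 227 to 357, lay below the WT naïve libraries, at 686 to 993.

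Of 12 further bipolar genes, 1 rose and 1 fell after ONC in WT, near the 18.1% of all genes called, and these were the transcription factor gene Bhlhe23 (3.18 ± 0.94 (SE, adjusted p = 0.0217)) and Tmem215 (-0.92 ± 0.25 (SE, adjusted p = 0.0133)), respectively. In KO 10 of the 12 fell, with a median of -1.56 against -0.57 in WT, led by the transcription factor genes Irx6 (-1.92 ± 0.37 (SE, adjusted p = 0.000828)) and Prdm8 (-1.83 ± 0.55 (SE, adjusted p = 0.0175)). Of 12 genes on a list drawn up around the ON bipolar signalling of mGluR6 and TRPM1, 3 were called after ONC in WT. After ONC in WT the calcium channel gene Cacna1s rose (2.50 ± 0.43 (SE, adjusted p = 0.000353)), and Gnao1, the G protein that mGluR6 drives, and Gnb5 fell (-1.22 ± 0.35 (SE, adjusted p = 0.0193) and -0.95 ± 0.27 (SE, adjusted p = 0.0177)). In KO after ONC 7 of the 12 fell and 1 rose (median -1.31), among the former Gng13, a G protein subunit, at -1.67 ± 0.39 (SE, adjusted p = 0.00332). The 1 that rose was again Cacna1s, at 1.66 ± 0.40 (SE, adjusted p = 0.00439). Which cells its reads came from was not tested. After IOP elevation in WT the G protein subunit gene Gnb3 rose (1.44 ± 0.35 (SE, adjusted p = 0.0396)). The interaction of IOP elevation with genotype was called for 3 of the 12, beside 8.75% of all genes, Gnb3, Gng13 and the orphan receptor gene Gpr179 (-2.34 ± 0.50 (SE, adjusted p = 0.0101), -2.31 ± 0.55 (SE, adjusted p = 0.016) and -2.21 ± 0.65 (SE, adjusted p = 0.0373)), in the direction of Pcp2. As for the members, the KO comparisons with naïve use KO naïve libraries of which 3 held more pigment epithelium transcripts than the WT naïve libraries.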

How the data were processed

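RNA of sorted GFP+ microglia was sequenced in 23 libraries of 6 groups (SMARTER library kit and 150-bp paired-end reads, which the study's methods and labels name). The submitters' processing notes also name STAR and DESeq2. The authors quantified reads with salmon against GRCm38 and deposited normalized counts, a signal value equal to gene counts divided by a size factor of each library. Every library's values were whole multiples of a step (0.804 to 1.34 normalized counts, tolerance 0.001 reads), which gave back the reads (22180480 to 30296094 a library). The floor of 3 reads covers counting error only.

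Values were tested as log2(normalized count + 1) with limma 3.58.1 (R 4.3.3; trended eBayes, 6 groups, no covariate) on the 17102 genes with at least 10 normalized counts in at least 3 libraries, in 9 contrasts. Fold changes are on that log2 scale, which understates those of scarce genes. Genes were called at an adjusted p under 0.05 and a log2 fold change over 0.58 in size, the study's thresholds. edgeR 4.0.16 (quasi-likelihood) and DESeq2 1.42.0 were run on the recovered reads, as alternatives. Fits were tested on simulated data. The study's methods describe pools of several mice for sorting, while a figure legend of these data counts mice. Whether each library was a pool is not settled, and p-values measure the spread between libraries. Python 3.11.15, pandas 2.3.3 and matplotlib 3.10.9 made tables and figures. The 9 members, the marker lists and the comparisons were chosen with earlier results of these data known. Named genes were the members, the 5 genes most correlated with each kind, called list members (at most 5 a list), and Spp1, Cx3cr1 and P2ry12; Rgr, Dct and the genes overlapping members were added after values were seen. A gene of the rod list and 1 of the amacrine and GABA lists are not reported here and were left out of all sums, counts and covariates. Alternatives were other pseudocounts and filters, rescaling, a replicate block, covariates, single groups, other tools and each library left out.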

Additional observations from a re-analysis of the deposited data

Results flagged for a closer look

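In 5 of 45 combinations of member and group (those of 4 libraries) 1 library lay far from the other 3 by Dixon's test, which flags about 1 in 20 by chance. Grm6 was at 1291 in WT IOP replicate 1, with the other libraries at 372 to 521, and at 1891 in KO IOP replicate 3, with the others at 672 to 868. Prkca was at 1094 in WT naïve replicate 4, above 623 to 655, and at 1725 in KO ONC replicate 1, above 746 to 810.1. Slc6a9 was at 1858 in KO naïve replicate 3, below 4154 to 4320.0; this is the KO naïve library with the lowest pigment epithelium sum and the highest P2ry12. Of the 5 flags, 4 are in bipolar members.

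The effect of IOP elevation differed between genotypes by the interaction term for Pcp2, at -2.23 (limma adjusted p = 0.0183), and for Gad1, at 1.52 (adjusted p = 0.0315).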

How the results depend on the processing

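The 5 amacrine calls after ONC in WT held in every fit that was run. The number of members called there was 6 with the rod covariate and with DESeq2 and 7 with the microglia covariate. For the genotypes compared after IOP elevation 0 were called in every fit. Between KO and WT naïve, 0 became 1 with quantile normalization and 3 with DESeq2; between KO and WT after ONC, 0 became 1 with the rod covariate, with the microglia covariate and with DESeq2. For WT IOP against naïve, 2 became 1 without a filter, with upper-quartile rescaling and with quantile normalization. For KO ONC against naïve, 6 became 0 with the rod, pigment epithelium or microglia covariate and with KO naïve replicate 3 alone. The interaction with IOP elevation went from 2 to 1 with upper-quartile rescaling and quantile normalization, where Gad1 was lost, and with the rod or pigment epithelium covariate, where Pcp2 was lost, and to 0 with the microglia covariate and with KO naïve replicate 3 alone; that with ONC went from 0 to 1 with the rod, pigment epithelium or microglia covariate and to 2 with DESeq2. Over all genes, calls moved as well. With the rod, pigment epithelium and microglia covariates, 4043 became 635, 1298 and 380 for KO ONC against naïve. For the interaction with IOP elevation, 1496 became 132, 320 and 116. The pigment epithelium and microglia covariates and the use of KO naïve replicate 3 alone were chosen after seeing the data. The cause was not tested, except that fits with KO naïve replicate 3 alone have fewer samples.

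Leaving out each library in turn gave 0 to 4 members called for KO against WT naïve, 0 to 0 after IOP elevation and 0 to 2 after ONC, 1 to 3 for WT IOP, 5 to 6 for WT ONC, 0 to 1 for KO IOP and 2 to 7 for KO ONC against naïve, and 1 to 3 and 0 to 2 for the interactions with IOP and ONC. Over all genes these fits called 1 to 1623, 109 to 574 and 2 to 744 between genotypes (naïve, IOP, ONC). Against naïve they called 102 to 332 for WT IOP and 1458 to 5213 for WT ONC. In KO they called 92 to 3182 after IOP elevation and 2798 to 5098 after ONC. For the interactions with IOP and ONC they called 573 to 3074 and 3 to 633. Directions reversed for Prkca between KO and WT naïve (-0.0445) and Trpm1 in KO IOP against naïve (0.00292) with KO naïve replicate 3 alone, with the microglia covariate for Trpm1 in KO IOP (0.36) and its interaction with IOP (0.27) and Grm6 in KO ONC (0.0867), and with the rod covariate for Tfap2a in KO ONC (0.0176). These 6 are among the 43 member values with an unadjusted p under 0.05. Of the other 38, 18 changed sign in at least 1 alternative (59 of 895 fits), so their signs are values of 1 fit, and no direction is read from them.

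Same-numbered libraries of different groups did not deviate together (median r of deviations 0.0046 over 55 pairs, -0.25 to 0.23; -0.0039 over 165 pairs of different numbers), so the numbers are only names. With the replicate block the members called were 0, 0 and 0 for KO against WT (naïve, IOP, ONC), 2 and 5 for WT IOP and ONC, 0 and 6 for KO IOP and ONC, and 2 and 0 for the interactions, the counts given without it. The effect of depth was not tested; the scarcest value was 13 reads, of Tfap2a.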
